A study of Chromochloris zofingiensis with 12 samples.

Results

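The genes described here are the 74 genes of *C. zofingiensis* whose expression rose with high irradiance when nitrate was ample, out of 14916 genes with a value above 0 in at least 1 library and 15274 genes in the expression table. They were chosen by the measured difference between HL 10 mM and LL 10 mM. This difference had to be at least 1 on the log2 scale, that is 2-fold, and every HL 10 mM library had to lie above every LL 10 mM library. The 25 carotenogenic gene IDs listed by the study were left out, as were the 100 genes with the highest mean FPKM in LL 10 mM. The first of these exclusions removed 1 gene that met the rule, the carotenoid isomerase CRTISO2 (Cz14g22040), and the second removed 0. The question asked of these genes is what low nitrate did to them, alone and together with high irradiance.

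The cells were wild-type *C. zofingiensis* CCAP 211/14, a unicellular freshwater green alga, kept in continuous photoautotrophic culture in glass photobioreactors diluted at 0.5 volumes per day. LL 10 mM had 10 mM nitrate in the feed and a maximum irradiance of 300 µE m−2 s−1 at the reactor surface, and HL 10 mM had the same nitrate and 1000 µE m−2 s−1. LL 1 mM and HL 1 mM had 1 mM nitrate at these irradiances. Cells were taken 4 h into the light period, and each of the 4 conditions has 3 RNA-seq libraries. Samples were taken on 3 successive days and analysed in triplicate, but the labels tie no library to a day or a reactor. The 3 libraries may thus be repeated samples of 1 culture, and the p-values cover the spread among these libraries only, which may be technical.

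Green algae respond to excess light with photoprotection, which includes heat dissipation in the light-harvesting antenna, the xanthophyll cycle, scavenging of reactive oxygen species and repair of photosystem II. Limiting nitrogen slows growth, lowers the demand for the products of photosynthesis and moves carbon towards storage lipid, starch and, in this alga, secondary carotenoids. Absorbed light can therefore also become excessive when nitrogen runs short. The data used here do not pair the 74 gene IDs with products, so no role is given to any of them, and the genes are told apart by their values.

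Levels are normalized FPKM, which are fragments scaled to transcript length and to the number of mapped fragments, after quantile normalization of log2(FPKM + 1) over the 12 libraries, with their SD over 3 libraries. Differences are in log2(FPKM + 1), so a low gene changed by more than its difference shows. Read counts are not part of the table, and the depth behind each value is unknown. The median deposited FPKM of all genes was 12.1 to 14.0 in the libraries at 10 mM nitrate and 17.1 to 20.1 in those at 1 mM, so comparisons between nitrate levels also depend on the normalization.

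Most of these genes had low levels in LL 10 mM. The level in LL 10 mM ranged from 0 to 292 over the 74 genes with a median of 4.90, below the median of 16.1 of all 14916 genes. In HL 10 mM the median was 15.3 and the highest level 914. In 24 genes the mean deposited FPKM in LL 10 mM was under 1, and in 2 of them every LL 10 mM library was listed at 0. The difference that chose the genes ran from 1.00 to 3.31 with a median of 1.27. The smallest values inside the rule were 1.004, 1.005 and 1.012, and the largest just outside it were 0.9965, 0.9887 and 0.9881. A further 5 genes had a difference of at least 1 but overlapping libraries. In the deposited FPKM, before normalization, 72 of the 74 genes also had all HL 10 mM libraries above all LL 10 mM libraries.

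By the values that chose it, the gene with the largest rise was Cz01g41040, which stood out at HL 10 mM only. Its normalized FPKM was 0.428, 0.514 and 0.814 in the LL 10 mM libraries and 14.0, 15.5 and 14.6 in the HL 10 mM libraries. At 1 mM nitrate it was 2.42, 2.08 and 2.03 in LL and 3.02, 3.79 and 2.47 in HL. All 6 libraries at 1 mM thus lay above LL 10 mM and far below HL 10 mM, and the libraries of LL 1 mM and HL 1 mM did not overlap. The light difference of Cz01g41040 at 1 mM was 0.36 (standard error 0.12) and did not pass limma's test (adjusted p = 0.125). Without quantile normalization it was 0.58 and passed (adjusted p = 0.0198), still under 2-fold, and without HL 1 mM replicate 2 it was 0.23 (adjusted p = 0.305). The gene with the next largest value, Cz02g12130, is a doubtful member. It was listed at 0 in all LL 10 mM libraries and also in HL 10 mM replicate 1, LL 1 mM replicate 1 and HL 1 mM replicate 2, while its other deposited FPKM values lay between 10.8 and 24.8. It met the rule only because the 0 of HL 10 mM replicate 1 became 0.0383 when ties were averaged in the normalization.

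**Figure D1:**
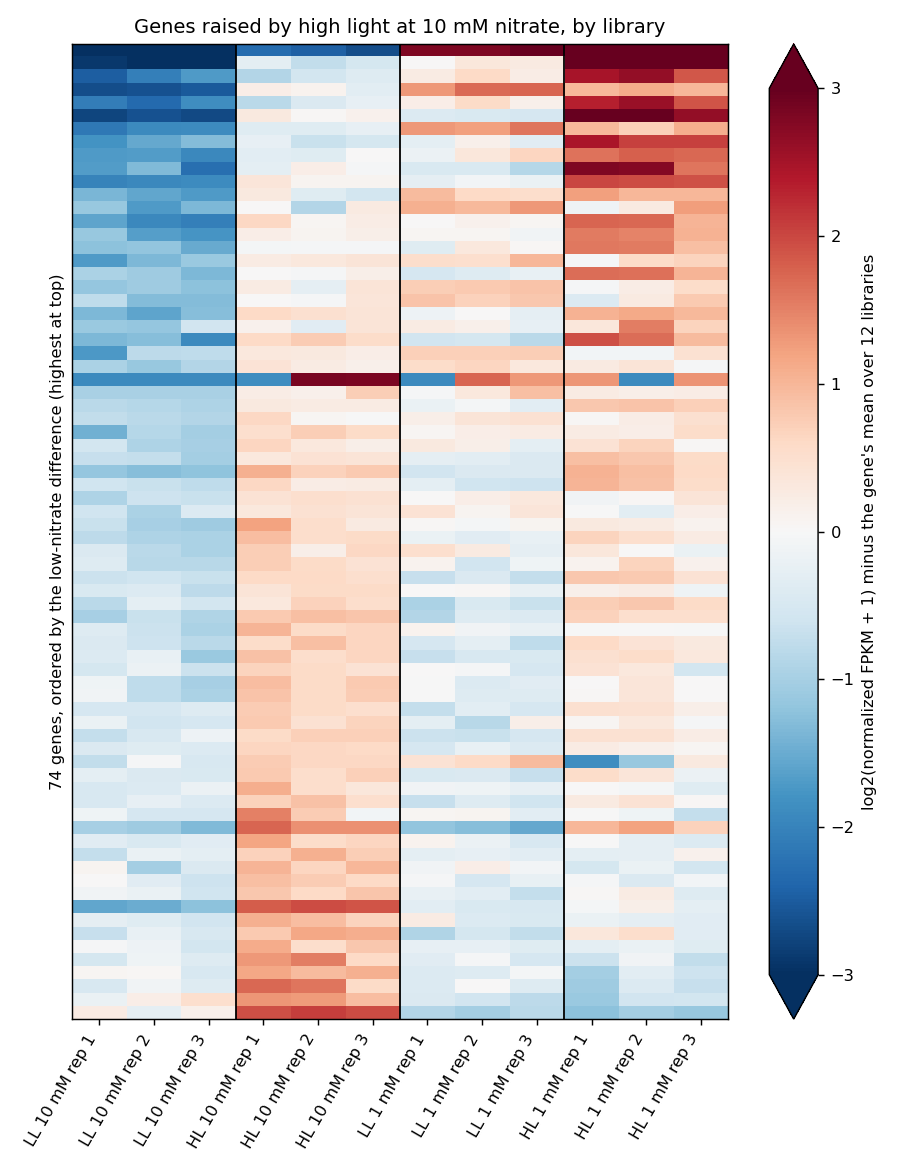
Heatmap of the 74 genes (rows, ordered from the highest to the lowest low-nitrate difference) in the 12 libraries (columns, 3 for each condition). Colour shows log2(normalized FPKM + 1) minus the mean of the gene over 12 libraries, cut at −3 and 3. The contrast between LL 10 mM and HL 10 mM is set by the choice of the genes. At the top, 1 mM libraries stand above HL 10 mM, and at the bottom they return to the level of LL 10 mM or below it.

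The changes with low nitrate that passed the test with a 2-fold size were mostly rises, and how many of the other genes stood higher depended on the normalization. The nitrate difference was taken as the mean of both 1 mM conditions minus the mean of both 10 mM conditions, so that the light difference used to choose the genes cancels out of it. Its p-values are not free of the rule. Asking for no overlap favours genes with a small spread at 10 mM, and these libraries enter the spread estimate. With both thresholds of the limma test, an adjusted p under 0.05 and a size of 2-fold or more, 19 of the 74 genes (25.7%) rose with low nitrate, beside 5.81% of all genes tested. Only 2 of the 74 genes (2.70%) fell, beside 2.94% of all genes. By the adjusted p without the size limit, 34 were higher (45.9%, beside 28.0% of all genes) and 17 lower (23.0%, beside 37.1%), while without quantile normalization 53 were higher (beside 61.9% of all genes) and 4 lower (beside 10.1%). The median difference was 0.23 over the 74 genes and −0.06 over all genes, and single values ran from −2.03 to 6.07. The difference was above 0 in 44 of the 74 genes and in 6510 of all genes. Without quantile normalization 66 of the 74 genes stood above 0 and the median of all genes moved to 0.32. There 27 of the 74 genes passed both thresholds as higher and 1 as lower, beside 2220 and 173 of all genes.

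The largest rise with low nitrate was that of Cz08g26250, for which light added little at 1 mM nitrate. Its normalized FPKM was 12.1, 16.1 and 15.6 in LL 10 mM and 36.7, 33.2 and 28.8 in HL 10 mM. It reached 1311, 1296 and 1502 in LL 1 mM and 1721, 1668 and 1804 in HL 1 mM. Libraries at 1 mM were thus all far above those at 10 mM at either irradiance. The nitrate difference was 6.07 (standard error 0.08, adjusted p = 2.94e-12), and the light difference at 1 mM, 0.34 (standard error 0.12, adjusted p = 0.126), did not pass limma's test although the HL 1 mM libraries lay above those of LL 1 mM.

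Cz08g00120 rose with low nitrate and again with high irradiance at low nitrate. Its normalized FPKM at 10 mM nitrate was 2.62, 1.72 and 1.64 in LL and 20.9, 15.0 and 17.6 in HL. At 1 mM it was 25.8, 32.8 and 31.4 in LL and 376, 322 and 215 in HL. No pair of conditions overlapped, and HL 1 mM was the highest by a wide margin. The nitrate difference was 3.69 (standard error 0.15, adjusted p = 8.14e-09) and the light difference at 1 mM 3.27 (standard error 0.21, adjusted p = 7.72e-06), both by limma.

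Both genes that fell with low nitrate had their highest level in HL 10 mM. The rule had placed HL 10 mM above LL 10 mM, so with all 1 mM libraries lower this was fixed. Cz03g01250 had a normalized FPKM of 5.95, 3.88 and 5.58 in LL 10 mM and 21.7, 23.7 and 21.8 in HL 10 mM. In LL 1 mM it was 2.23, 1.89 and 2.38, and in HL 1 mM 1.51, 1.93 and 1.68, so every 1 mM library lay below every 10 mM library. The nitrate difference was −2.03 (standard error 0.09, adjusted p = 1.94e-08 by limma), and the light difference at 1 mM was −0.23 (standard error 0.12, adjusted p = 0.327). Cz01g37190 had 6.70, 9.30 and 11.7 in LL and 21.3, 20.6 and 15.9 in HL at 10 mM, and 5.58, 5.01 and 4.20 in LL and 3.08, 4.97 and 5.05 in HL at 1 mM. Here too the 1 mM libraries all lay below those at 10 mM. Its nitrate difference was −1.35 (standard error 0.14, adjusted p = 1.38e-05 by limma), and without quantile normalization it was −0.68 (adjusted p = 0.00111) and no longer 2-fold.

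**Figure D2:**
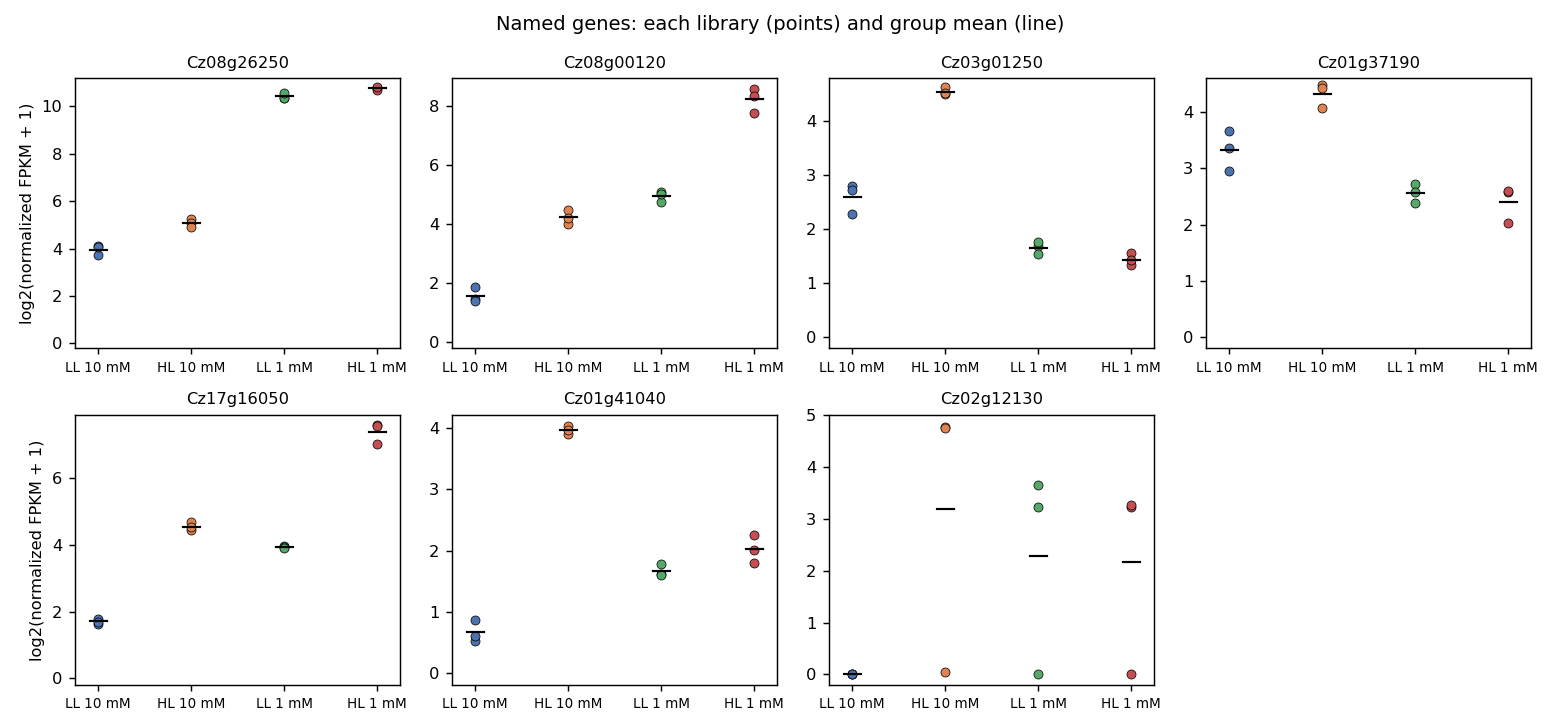
Level of the 7 genes named by the fixed rule, as log2(normalized FPKM + 1), in each library (points) and as the mean of each condition (short lines), with 3 libraries a condition. Cz08g26250 is high in both 1 mM conditions, Cz08g00120 and Cz17g16050 are highest in HL 1 mM, Cz03g01250, Cz01g37190 and Cz01g41040 are highest in HL 10 mM, and Cz02g12130 has a library near 0 in every condition.

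Taken at each irradiance separately, many of these genes stood higher at 1 mM in LL, and in HL some stood higher and some lower. These comparisons share libraries with the rule: the LL 10 mM libraries had been chosen as low and the HL 10 mM libraries as high, which by itself pushes the first difference up and the second down. They are therefore given as values without a test. In LL, 27 of the 74 genes stood at least 2-fold higher at 1 mM without overlap of libraries (beside 4.59% of all genes) and 0 stood 2-fold lower (beside 3.03%). In HL, 16 stood 2-fold higher (beside 7.22%) and 11 stood 2-fold lower (beside 3.73%). Without quantile normalization the latter counts were 20 and 5, given without the share of all genes at that setting. The median difference was 0.71 in LL and −0.26 in HL, and over all genes it was −0.04 and −0.08.

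The same libraries, and so the same push from the rule, stand behind the combined counts. At 1 mM nitrate, 15 genes were 2-fold higher in LL and in HL (beside 3.67% of all genes), 10 in LL with neither change in HL (beside 0.905%) and 1 in HL only (beside 3.53%). Another 2 were higher in LL and lower in HL (beside 0.0134%), 9 were lower in HL only (beside 1.88%), and 37 met neither limit in either light (beside 87.0%). Every LL 1 mM library lay above every HL 10 mM library in 12 genes (beside 24.3% of all genes) and below in 48 (beside 34.3%). Since HL 10 mM was chosen as high, the rule favours the second of these counts. The mean level was highest in HL 10 mM for 40 genes, in HL 1 mM for 24 and in LL 1 mM for 10. The rule favours the first of these counts too, and they stand without a share of all genes. The rule itself leaves 0 genes with their highest level in LL 10 mM.

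**Figure D3:**
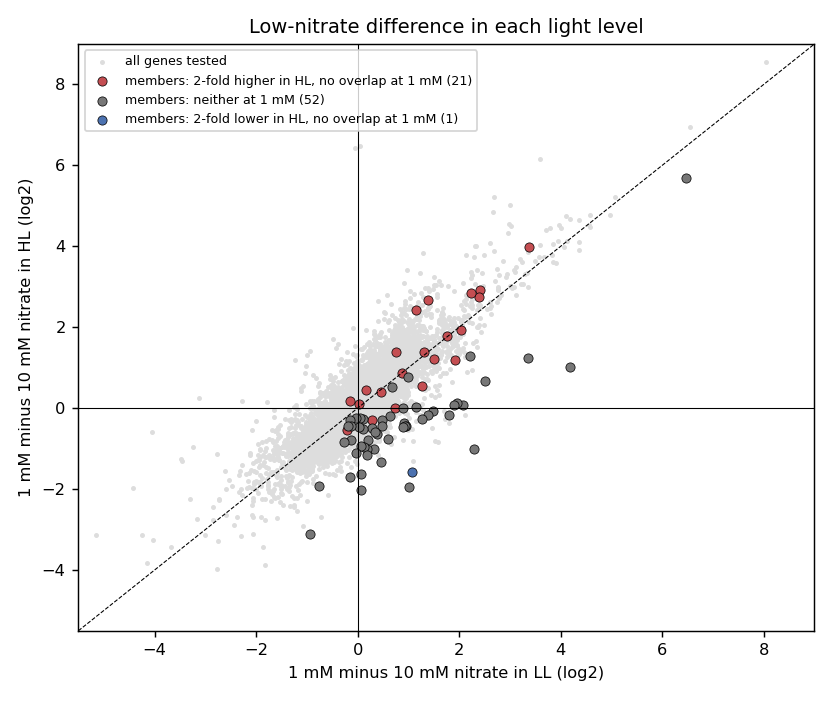
Difference between 1 mM and 10 mM nitrate in LL (x axis) and in HL (y axis), both in log2, for the 74 genes (large points) and all 14916 genes (grey). Colour gives the class by the light difference at 1 mM, and the dashed line marks equal differences. The 21 genes that were also 2-fold higher in HL at 1 mM lie on both sides of the line, and the others lie below it, the side towards which the choice of the genes pushes them.

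High irradiance at 1 mM nitrate was measured in 6 libraries that the rule did not use, and a part of the genes rose there too. With limma, 21 of the 74 genes (28.4%) rose by 2-fold or more in HL 1 mM against LL 1 mM, beside 0.275% of all genes, and these are 21 of the 41 genes of the whole table that did so. Of the 74 genes 0 fell by 2-fold, beside 0.402% of all genes. At an unadjusted p under 0.05 by limma, 35 were higher and 7 lower. These unadjusted counts have no share of all genes beside them and are not read further. By the adjusted p without the size limit, 31 were higher (41.9%, beside 2.82% of all genes) and 0 lower (beside 2.41%). Every HL 1 mM library lay above every LL 1 mM library in 38 genes (beside 13.0% of all genes), and 21 of them were also 2-fold higher (beside 0.288%). These are the same 21 genes that limma called. The spread estimate of that test also rests on the 10 mM libraries. In a fit of the 6 libraries at 1 mM alone, 20 of the 74 genes rose and 0 fell by the same thresholds. The share of all genes in that fit is not given. In 6 genes (8.11%) every HL 1 mM library lay below every LL 1 mM library in normalized values (beside 13.4% of all genes). The median light difference at 1 mM was 0.39 over the 74 genes and 0.00 over all genes, with values from −1.56 to 3.46. Across the 74 genes, which are not independent and share a library set within each difference, the size of the rise at 10 mM went with that at 1 mM only weakly (Spearman's rho 0.18).

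The largest rise in HL at 1 mM was that of Cz17g16050. Its normalized FPKM at 10 mM nitrate was 2.12, 2.46 and 2.22 in LL and 24.7, 20.7 and 22.2 in HL. At 1 mM it was 14.8, 14.4 and 14.0 in LL and 194, 189 and 130 in HL. Libraries of the 4 conditions did not overlap, and HL was above LL at both nitrate levels. The light difference at 1 mM was 3.46 (standard error 0.13, adjusted p = 1.61e-07) and the nitrate difference 2.54 (standard error 0.10, adjusted p = 5.61e-09), both by limma.

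Among the most highly expressed of these genes, Cz04g35190, which was singled out for its level after the values were seen, had a normalized FPKM of 292 ± 70.1 in LL and 914 ± 44.1 in HL at 10 mM nitrate (SD, n = 3). At 1 mM it had 821 ± 47.3 in LL and 2133 ± 376 in HL. Its light difference at 1 mM was 1.36 (standard error 0.16, adjusted p = 0.000907) and its nitrate difference also 1.36 (standard error 0.12, adjusted p = 2.55e-06), by limma. With libraries scaled to the same median, these were 0.97 and 0.64.

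The genes whose light response held at low nitrate had a higher median nitrate difference than the others, with much spread in each group. Of these 21 genes, 12 rose with low nitrate and 0 fell by the limma thresholds above, and their median nitrate difference was 1.35. Of the 52 genes with neither a 2-fold rise nor a 2-fold fall in HL at 1 mM, 7 rose and 2 fell, and the median was −0.09, although Cz08g26250 with the largest nitrate difference of all is among them. Both differences contain the HL 1 mM and LL 1 mM libraries, and whether these groups differ was not tested. HL 1 mM replicate 3 was the lowest of the 3 HL 1 mM libraries in 18 of the 21 genes, while over all genes it was lowest in 38.7%. Without this library 26 of the 74 genes rose in HL at 1 mM and 19 with low nitrate, and 1 fell in HL at 1 mM. These counts stand without the share of all genes at that setting. The part of this library in the size of the light difference was not tested further.

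**Figure D4:**
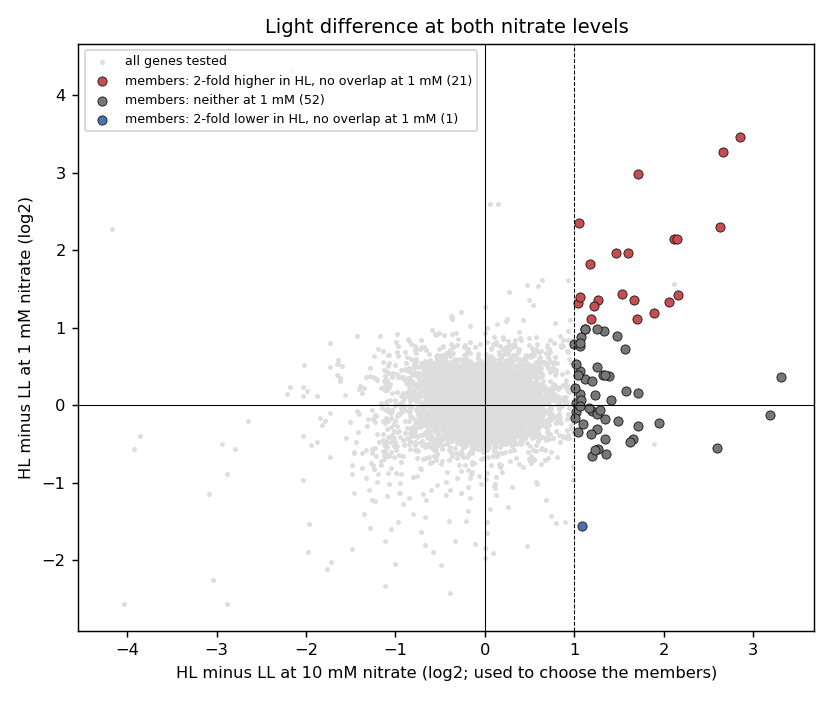
Difference between HL and LL at 10 mM nitrate (x axis, the values that chose the genes, dashed line at 1) and at 1 mM nitrate (y axis), both in log2, for the 74 genes (large points) and all 14916 genes (grey). Red points are the 21 genes that were 2-fold higher in HL at 1 mM without overlap, and the blue point is the 1 gene that was 2-fold lower, which did not pass limma's test.

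Of the 74 genes, 20 stood directly beside another one in the table sorted by ID, in 4 runs of 3 genes and 4 runs of 2. How many such runs a set of this size would hold was not tested, and reads shared between similar neighbouring copies could not be told apart in these values. The 4 runs of 3 were singled out after their values were seen, and the runs differed from each other in their levels over the 4 conditions.

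UNPLg00451, UNPLg00452 and UNPLg00453 rose with light at 1 mM nitrate and with low nitrate. UNPLg00451 had a normalized FPKM of 18.7 ± 5.09 in LL and 52.9 ± 8.73 in HL at 10 mM nitrate, and of 103 ± 15.4 in LL and 415 ± 107 in HL at 1 mM (SD, n = 3). UNPLg00452 followed closely, with 14.6 ± 2.59, 46.5 ± 9.10, 81.7 ± 14.0 and 324 ± 77.6 in the same order. UNPLg00453 was more abundant, with 193 ± 27.0, 434 ± 33.6, 324 ± 34.3 and 1169 ± 274. For all of them HL 1 mM was the highest condition, and its libraries overlapped with those of no other condition. Their light differences at 1 mM were 1.97, 1.96 and 1.82 (adjusted p = 0.000775, 0.000397 and 0.000133 by limma). Their nitrate differences were 2.67, 2.58 and 1.08 (adjusted p = 2.55e-07, 1.54e-07 and 1.88e-05), the last falling to 0.48 with scaling of the libraries to a common median.

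Cz01g06080, Cz01g06090 and Cz01g06100 had their highest mean level in LL 1 mM. Cz01g06080 had a normalized FPKM of 39.8, 77.2 and 77.4 in LL and 167, 163 and 152 in HL at 10 mM nitrate. At 1 mM it had 217, 220 and 223 in LL and 125, 126 and 182 in HL. Its LL 1 mM libraries were above all others, and those of HL 10 mM and HL 1 mM overlapped. Cz01g06090 and Cz01g06100 were low, at 0.559 ± 0.304 and 0.161 ± 0.0639 in LL 10 mM and 7.78 ± 1.05 and 3.49 ± 0.169 in LL 1 mM. The nitrate differences of these genes were 0.82, 1.58 and 1.04 (adjusted p = 0.00107, 0.00023 and 2.41e-05 by limma). The first of them was under 2-fold, and 0.46 (adjusted p = 0.0301) with median scaling. For Cz01g06100 it was 1.72 without quantile normalization and 2.05 with a pseudocount of 0.1. It was under 2-fold, at 0.87, with a filter that removed genes of mean FPKM below 1, at 0.94 without HL 1 mM replicate 3 and at 0.96 without HL 10 mM replicate 2.

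Cz06g14070, Cz06g14080 and Cz06g14090 had their highest mean normalized level in HL 10 mM, and their order at 1 mM depended on the normalization. Cz06g14070 had a normalized FPKM of 5.53, 5.08 and 4.31 in LL 10 mM and 15.6, 13.9 and 11.5 in HL 10 mM. At 1 mM it had 8.28, 4.89 and 4.70 in LL and 5.86, 5.51 and 5.16 in HL, which overlapped with each other and with LL 10 mM. Cz06g14080 had a mean level of 12.9 in HL 10 mM and of 5.75 to 6.91 in the other conditions, and Cz06g14090 had 15.5 and 6.18 to 7.31. The nitrate differences were −0.49, −0.30 and −0.42 (adjusted p = 0.00508, 0.0523 and 0.0153 by limma). They turned positive without quantile normalization, at 0.23, 0.40 and 0.26, so no direction is given for nitrate here. In the deposited FPKM all 1 mM libraries of these genes lay above those of LL 10 mM, as for Cz06g14080 with 8.19 to 10.7 against 3.65 to 4.97.

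Cz11g10100, Cz11g10110 and Cz11g10120 were higher in HL than in LL at both nitrate levels. Cz11g10100 had a normalized FPKM of 67.2, 68.6 and 65.5 in LL 10 mM and 65.0, 77.5 and 63.8 in LL 1 mM, against 161, 161 and 150 in HL 10 mM and 186, 181 and 141 in HL 1 mM. Libraries overlapped between nitrate levels within each irradiance but not between irradiances. The light differences at 1 mM were 1.28, 0.81 and 0.96 (standard error 0.11, 0.13 and 0.14, adjusted p = 7.06e-05, 0.00602 and 0.00386 by limma), and only that of Cz11g10100 reached 2-fold. Their nitrate differences were 0.06, −0.31 and −0.08 (adjusted p = 0.48, 0.0118 and 0.482), all under 2-fold.

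**Figure D5:**
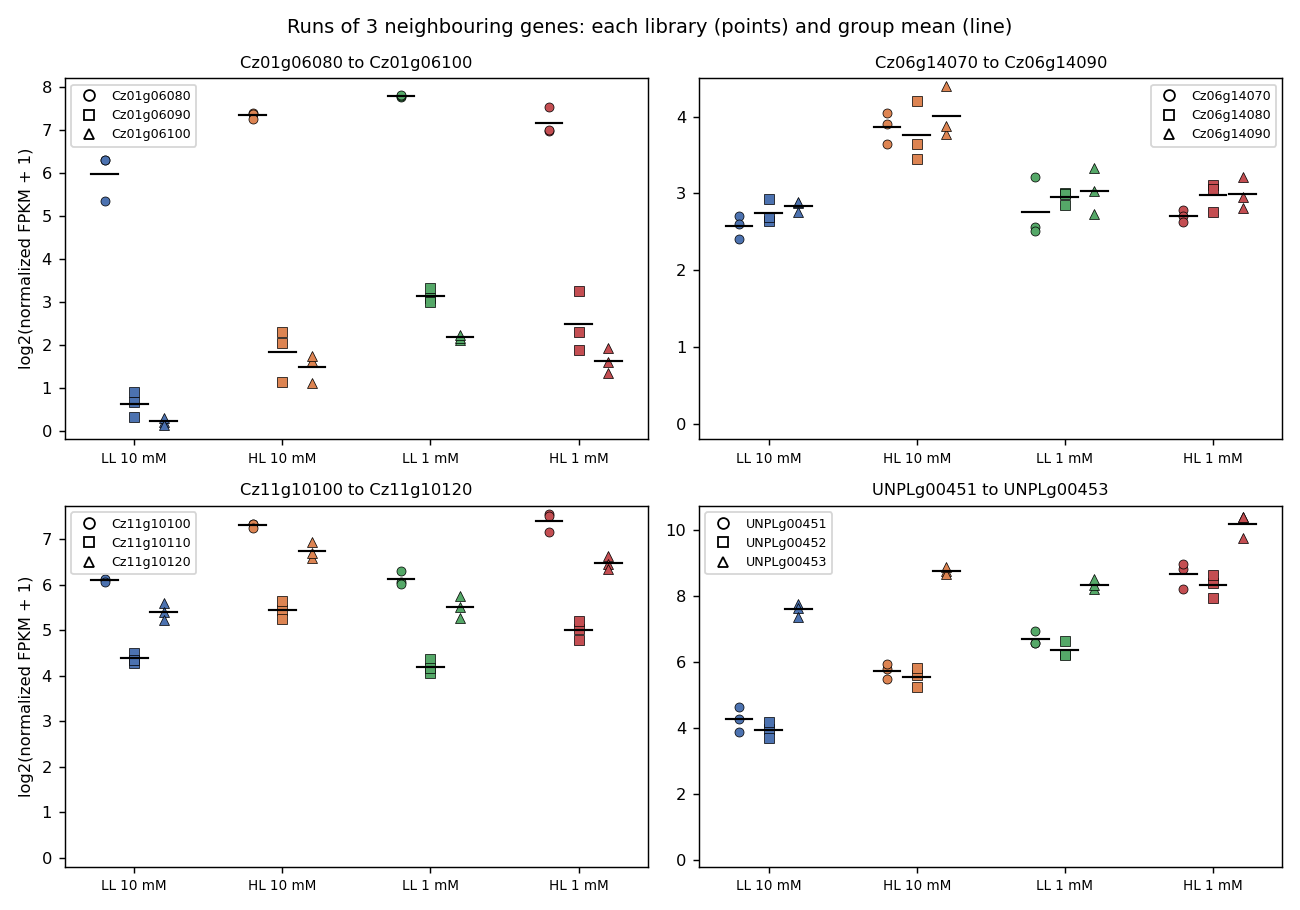
Level of the 4 runs of 3 neighbouring genes, as log2(normalized FPKM + 1), in each library (points, shape by gene) and as condition means (short lines), with 3 libraries a condition. The UNPLg00451 run is highest in HL 1 mM, the Cz01g06080 run in LL 1 mM, the Cz06g14070 run in HL 10 mM, and the Cz11g10100 run is higher in HL than in LL at both nitrate levels.

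One pair of genes on different chromosomes by their IDs, Cz03g33170 and Cz07g33120, had almost the same value in every library, with a largest gap of 0.06 on the log2 scale. Their mean levels in HL 10 mM were 4.15 ± 0.513 and 4.27 ± 0.638 normalized FPKM (SD, n = 3). If these are near-identical copies, the authors' quantification could split reads between them, which was not tested, and they may count as 1 response rather than 2.

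The opposite set, 167 genes that stood 2-fold lower in HL 10 mM than in LL 10 mM without overlap and with the same exclusions, had about the same share of rises with low nitrate and a larger share of falls. Of these, 40 (24.0%) rose and 69 (41.3%) fell with low nitrate, against 19 (25.7%) and 2 (2.70%) of the 74 genes. In HL against LL at 1 mM 14 of the 167 genes (8.38%, beside 0.402% of all genes) fell by 2-fold and 0 rose (beside 0.275%). At an unadjusted p under 0.05 by limma, 68 were lower and 16 higher. These unadjusted counts have no share of all genes beside them. The median nitrate difference was −0.61 for these genes and 0.23 for the 74. The difference between the sets was not tested. Of the 25 carotenogenic genes, which the study chose for their pathway, 2 rose and 1 fell with low nitrate by the same thresholds. Over all genes 5.81% rose and 2.94% fell. In HL at 1 mM 1 of the 25 rose, beside 0.275% of all genes. The 25 include CRTISO2, which met the rule for the 74 genes and was left out by its ID. Its normalized FPKM was 15.4 in LL 1 mM and 47.9 in HL 1 mM.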

How the data were processed

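RNA-seq was analysed from 12 libraries of *C. zofingiensis*, 3 for each of 4 conditions. The authors made stranded mRNA libraries, mapped the reads with HISAT2 and quantified genes with StringTie through the MARACAS pipeline. The deposited table holds 1 value for each gene and library, taken as FPKM from its values, since the sources do not name the unit. Read counts and depth are not known from it.

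In R 4.3.3, 358 genes at 0 in all libraries were dropped, and log2(FPKM + 1) of the other 14916 was quantile-normalized. A limma 3.58.1 model with the 4 conditions was fitted (prior degrees of freedom 2.63). A call needed p under 0.05 after Benjamini-Hochberg adjustment over the 14916 genes, and a 2-fold change. An exact test of 3 libraries against 3 cannot go below p = 0.1. Members and lists were chosen with earlier results of these data known. The genes named were, for each tested comparison, the 2 called members without overlap that changed most in each direction, and the 2 with the largest difference at 10 mM. Other IDs were added after their values were seen. The steps were tested on simulated data with independent noise and with changes added only to genes of middle level. Changes in low genes, and deviations shared between libraries, were not covered. No annotation or sequence was used here. Results were recomputed with a pseudocount of 0.1, a filter at a mean FPKM of 1, no quantile normalization, median scaling, a trended and robust prior, a replicate block, other call and member rules, a fit of 6 libraries and leaving out each library.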

Additional observations from a re-analysis of the deposited data

Results flagged for a closer look

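In 6 of the 74 genes the light response in normalized values had opposite signs at the 2 nitrate levels. Every HL 10 mM library lay above every LL 10 mM library, and every HL 1 mM library below every LL 1 mM library. These are 8.11% of the 74 genes, a smaller share than the 13.4% of all genes with HL below LL at 1 mM. In the deposited FPKM, the HL 1 mM and LL 1 mM libraries overlapped for Cz11g28160, Cz01g06100, Cz13g03110 and Cz08g26050. They did not overlap for Cz01g06080 and Cz13g11150. The difference between the responses was not tested, since the first of them chose the genes. The light difference at 1 mM was −1.56 for Cz11g28160, −0.63 for Cz01g06080, −0.56 for Cz01g06100, −0.55 for Cz13g11150, −0.44 for Cz13g03110 and −0.44 for Cz08g26050, and by limma none passed the test (adjusted p 0.0536 to 0.314). Some of these calls changed with the setting, but none of the 6 genes passed without quantile normalization, with median scaling or in the fit of 6 libraries. Without quantile normalization the light difference of Cz13g03110 was −0.22 (adjusted p = 0.39 by limma). With the filter at a mean FPKM of 1 the adjusted p was 0.0478 for Cz11g28160, 0.0452 for Cz13g11150 and 0.0441 for Cz13g03110. With the replicate block it was 0.0396 for Cz11g28160 and 0.026 for Cz13g03110, and with the trended, robust prior 0.0409 for Cz11g28160 and 0.0428 for Cz13g11150. Cz01g06080 passed without LL 10 mM replicate 1 (0.024), Cz01g06100 without HL 10 mM replicate 2 (0.0421), and Cz13g11150 without HL 10 mM replicate 1 (0.0497), without replicate 3 of that condition (0.0256) and without LL 1 mM replicate 1 (0.0323). The 10 mM libraries are not part of this difference, which stayed at −0.63 for Cz01g06080 and −0.56 for Cz01g06100 in those fits.

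Cz11g28160 had a normalized FPKM of 19.1, 21.4 and 27.6 in LL 1 mM and 3.09, 5.73 and 17.2 in HL 1 mM. HL 1 mM replicate 3 lies far above the other libraries of its condition. Without it the difference was −2.19 and passed limma's test (adjusted p = 0.00108).

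Cz13g11150 and Cz13g03110 were raised by either stress and highest in LL 1 mM. Cz13g11150 had a normalized FPKM of 1.01 ± 0.0897 in LL and 11.3 ± 2.22 in HL at 10 mM nitrate, and of 35.7 ± 5.95 in LL and 23.8 ± 1.25 in HL at 1 mM (SD, n = 3). Cz13g03110 had 0.320 ± 0.132 and 3.15 ± 0.173 at 10 mM, and 12.5 ± 1.88 and 8.93 ± 1.28 at 1 mM. Their nitrate differences were 2.60 and 2.30 (adjusted p = 7.54e-09 and 5.61e-09 by limma).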

How the results depend on the processing

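The number of genes chosen was 205 with a pseudocount of 0.1, which gives low genes larger differences, and 76 to 93 when 1 of the 6 libraries of the rule was left out. With that pseudocount, 23 of the original 74 genes rose and 5 fell with low nitrate, beside 1233 and 863 of all genes. Of the 74 genes, 1 stood 2-fold lower in LL 1 mM than in LL 10 mM. Their median nitrate difference and median light difference at 1 mM were 0.35 and 0.52, beside −0.07 and 0 over all genes. Without quantile normalization 27 of the 74 genes rose and 1 fell with low nitrate, beside 2220 and 173 of all genes. There 5 of the 74 stood 2-fold lower in HL 1 mM than in HL 10 mM. The medians were 0.70 and 0.59, beside 0.32 and 0.1 over all genes, which moved too. The nitrate differences of Cz06g14070, Cz06g14080 and Cz06g14090 turned to 0.23, 0.40 and 0.26. The median nitrate difference was 0.32 with median scaling, beside −0.07 over all genes. For genes chosen without quantile normalization the medians were 0.34 and 0.49. At the adjusted p alone 34 genes rose and 17 fell with low nitrate, beside 28.0% and 37.1% of all genes. The gene that fell in HL at 1 mM, 1 in place of 0, was called with the filter at a mean FPKM of 1, with the replicate block and with the trended, robust prior. The cause of these shifts was not tested.

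The replicate number as a block changed no other count of calls. The same-numbered libraries of 2 conditions deviated together with r over 0.1 in 12 of 18 pairs (from −0.06 to 0.443), and 9 of 12 libraries correlated best with their own number, a hint from the data that libraries of 1 number share something. The number was not taken as a pairing because not every pair passed 0.1 and the labels do not say that it marks the day of sampling.

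When each library was left out in turn, 18 to 21 genes rose and 2 to 4 fell with low nitrate (4 without HL 1 mM replicate 2), and the median was 0.20 to 0.26. In HL at 1 mM 20 to 26 rose and 0 to 1 fell (1 without HL 1 mM replicate 3), with a median of 0.29 to 0.48. In LL 0 to 1 stood 2-fold lower at 1 mM (1 without LL 10 mM replicate 2). These counts stand without the shares of all genes in the same fits.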
